A study of Rattus norvegicus with 18 samples.

Results

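The comparison described here sets bone repairing around polycaprolactone scaffolds that carry amorphous calcium phosphate chitosan nanoparticles (ACPC-NP) beside bone repairing around polycaprolactone scaffolds that carry calcium phosphate microparticles (CaP), 6 weeks after implantation. Its members are the 3 ACPC-NP and 3 CaP libraries that the labels place at week 6, which makes 6 of the 18 bulk mRNA libraries of the series. Both kinds of scaffold were 3D-printed from the same polymer, polycaprolactone (PCL), and were placed in a gap in the rat radius too large to heal unaided, so the groups differ in the additive (nanoparticles of amorphous calcium phosphate with chitosan, or microparticles of calcium phosphate). The remaining libraries come from bare PCL scaffolds at weeks 2 and 6 and from both mineral scaffolds at week 2, again 3 to a group. All animals are labelled wild type, and the strain is not given in the sources used here. RNA came from cells freed from marrow and bone of the defect margins, up to 1 mm from the implant on either side; marrow was treated with a lysis buffer for red blood cells, and marrow and bone digests were pooled. Nothing in the labels ties a library to an animal, so each p-value measures the spread between libraries, which may be technical in part. With 3 libraries against 3, precision is limited throughout.

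As background, a bone defect fills through overlapping steps: blood cells and macrophages clear debris, stromal cells form cartilage or bone matrix, and osteoclasts resorb it while osteoblasts lay down type I collagen and mineral. Marrow that returns to the site brings erythroid, granulocyte and B-lymphoid precursors, which depend on stromal cells that express the leptin receptor and the chemokine Cxcl12. Calcium phosphate is used in bone implants as a mineral source, and its particle size and crystallinity set how fast it dissolves.

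The 6 libraries held 18880604 to 27186587 counts each. Counts differed between libraries of one group by 30.5 to 74.3 in chi-square per degree of freedom, so no library duplicated another of its group. The first principal component of the 6 libraries took 44.9% of the variance and did not separate the scaffolds: ACPC-NP libraries lay at -31.7, -28.7 and 47.1 and CaP libraries at 24.5, -26.3 and 15.2. Levels are given as CPM, counts scaled to a common library size. Markers of the labelled tissue were present, with Col1a1, the main bone collagen chain, at 4373 to 13580 CPM and the haemoglobin gene Hbb at 21550 to 59100 CPM. Markers of tissue next to bone were also present, since Acta1, the skeletal muscle actin, ran from 23.0 to 275.9 CPM. Tnf, Tnfsf11 (the osteoclast-inducing ligand RANKL) and Gata1 (the main erythroid transcription factor) are listed at 0 in all 6 libraries, and nothing is read from them.

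No gene differed between ACPC-NP and CaP at week 6 after adjustment. Of 11814 genes tested with edgeR's quasi-likelihood test, 0 (0% of genes tested) had an adjusted p under 0.05 in either direction, and the lowest adjusted p was 0.506. An unadjusted p under 0.05 was reached by 518 genes with higher values around ACPC-NP (4.38%) and 586 with lower values (4.96%), 9.34% in all. CPM ranges of the 2 groups did not overlap for 1457 genes higher around ACPC-NP (12.3%) and 1481 lower (12.5%), and 50.3% of all genes had a difference above 0. Other tools gave some calls: DESeq2 called 12 genes higher and 11 lower (0.174% of 13198 genes), and limma-voom with quality weights called 15 higher and 55 lower (0.593%). They shared 17 genes, which is 73.9% of the DESeq2 calls and 24.3% of the voom calls. The differences below are therefore given as values, on the log2 scale as ACPC-NP minus CaP with the standard error (SE), and none passed the adjusted threshold in edgeR. In bulk tissue, fewer cells of a type and less RNA per cell cannot be told apart, so no value here counts cells.

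Among genes with higher values around ACPC-NP, and with a mean log2 CPM of at least 1 and ranges that did not overlap, the smallest p belonged to March2, a membrane-bound ubiquitin ligase. March2 stood at 324, 335 and 297 CPM around ACPC-NP and at 174, 187 and 219 CPM around CaP. All 3 ACPC-NP libraries lay above all CaP libraries, as the choice of named genes required, and the difference was 0.72 ± 0.16 (edgeR unadjusted p = 0.000437, adjusted p = 0.506). DESeq2 gave March2 an adjusted p of 0.0252.

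Lepr, the leptin receptor that marks marrow stromal cells, was at 4.19, 4.78 and 4.89 CPM around ACPC-NP and at 1.32, 0.871 and 1.61 CPM around CaP. These values rest on 94 to 106 reads per ACPC-NP library and 20 to 38 per CaP library, and the difference was 1.86 ± 0.42 (edgeR adjusted p = 0.506, DESeq2 adjusted p = 0.0164). Bare PCL libraries at week 6 stood at 2.53, 0.95 and 0.679 CPM, below the ACPC-NP range. Cdkl1, a kinase related to the cyclin-dependent kinases, was at 29.9, 27.1 and 14.3 CPM against 3.998, 4.53 and 12.7 CPM. The lowest ACPC-NP library was thus close to the highest CaP library for Cdkl1, although the ranges did not overlap. C5ar2, a second receptor for the complement fragment C5a, was at 29.1, 37.7 and 26.6 CPM against 16.8, 17.6 and 18.5 CPM. The other genes of smallest p in this direction were Tusc2, Chp1, Map4k5, Atp5s, Mettl7a and Cdr2, with differences from 0.57 (Tusc2) to 0.90 (Atp5s).

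Among genes with lower values around ACPC-NP, Spata5, an ATPase of ribosome maturation, had the smallest p of any named gene (unadjusted p = 6.32e-05 in edgeR). Spata5 was at 11.7, 10.5 and 11.4 CPM around ACPC-NP and at 17.7, 17.2 and 15.7 CPM around CaP. The difference was -0.59 ± 0.11, with an adjusted p of 0.506 in edgeR and 0.000801 in DESeq2.

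Wnt10b, a Wnt ligand known from mice to favour osteoblast formation, was at 4.23, 2.71 and 2.86 CPM around ACPC-NP and at 12.5, 7.71 and 8.64 CPM around CaP. Its bare PCL values at week 6, 7.92, 11.7 and 19.5 CPM, lay with or above the CaP values. The difference between ACPC-NP and CaP was -1.55 ± 0.33 (edgeR adjusted p = 0.506). Hivep3, a zinc-finger protein known from mice to restrain osteoblast activity, was at 23.7, 26.0 and 27.1 CPM against 61.1, 57.6 and 60.5 CPM. The 3 libraries of each group were close together for Hivep3, and its difference of -1.22 ± 0.27 was the only call (adjusted p = 0.0219) when edgeR was run on the 6 libraries alone. Dusp10, a phosphatase that switches off the stress kinases p38 and JNK, was at 29.7, 24.5 and 36.4 CPM against 58.0, 66.0 and 66.6 CPM. Map3k1, a kinase that feeds the same stress kinases, was at 50.8, 55.8 and 46.0 CPM against 71.7, 76.9 and 71.1 CPM. Pianp, Arhgap17, Rem2 and Bcar3 also had small p, with differences from -1.74 (Pianp) to -0.50 (Arhgap17). Of the 20 genes of smallest p, 10 in each direction, 17 were called by DESeq2, 17 by voom and 14 by both. The genes were picked for small p, so their direction in these libraries is not separate evidence.

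**Figure D1:**
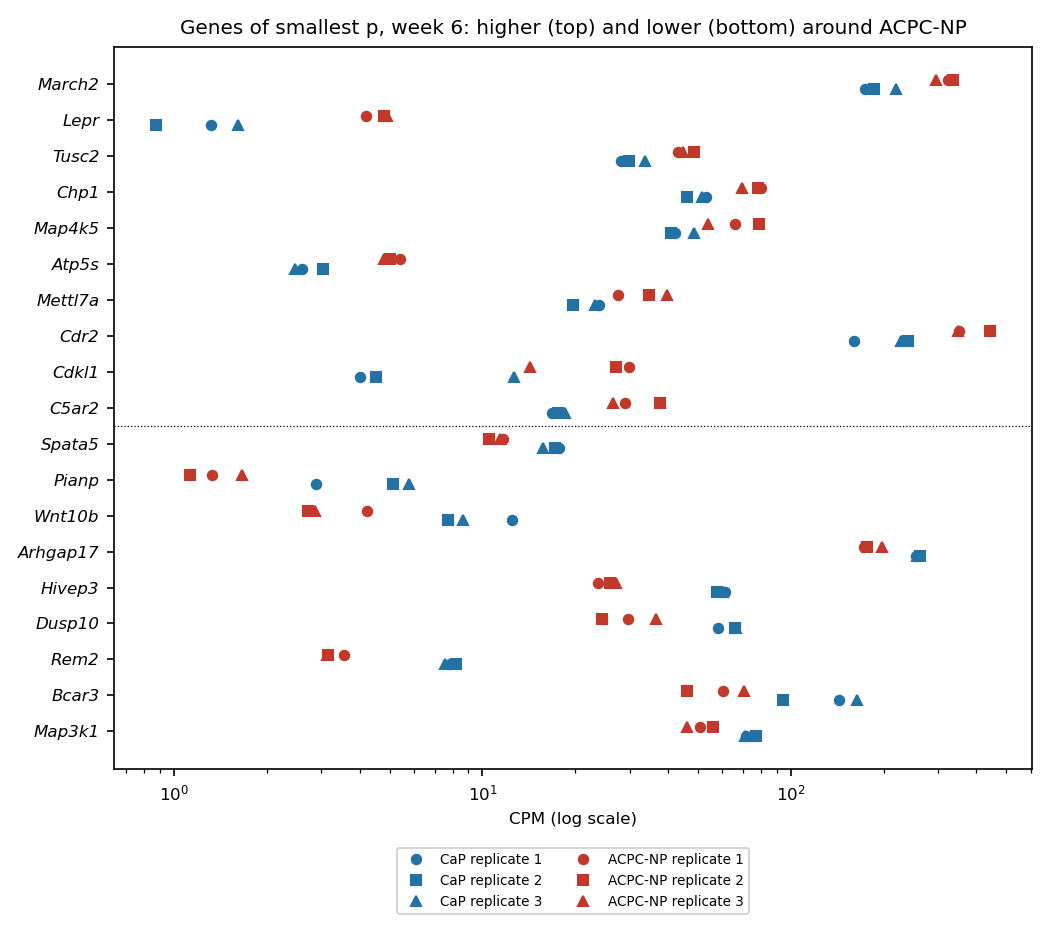
CPM (log axis) in each week 6 library for genes of smallest p in each direction, with ACPC-NP in red, CaP in blue and the symbol giving the replicate number. Every red point lies above the blue points for the genes of the upper group and below them for the genes of the lower group, which the choice of genes required.

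Genes of red blood cell formation had higher values around ACPC-NP. All 22 tested members of the erythroid list had a difference above 0, against 50.3% of all genes, and the list's median was 0.62 against 0.00 for all genes tested. An unadjusted p under 0.05 was reached by 11 of the 22 in this direction (4.38% of all genes), and CPM ranges did not overlap for 20 (12.3% of all genes). None passed the adjusted threshold in edgeR, DESeq2 or voom.

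Hbb, the adult beta globin, took 4.54%, 5.66% and 4.45% of all counts around ACPC-NP and 2.28%, 2.96% and 3.12% around CaP. All ACPC-NP libraries lay above all CaP libraries, and the difference was 0.91 ± 0.29 on the log2 CPM scale (edgeR unadjusted p = 0.0075, adjusted p = 0.52). Alas2, the erythroid enzyme that starts haem synthesis, was at 3114, 3852 and 2741 CPM against 1445, 1996 and 2210 CPM. Fech, which inserts iron into the haem ring, was at 1046, 1109 and 856 CPM against 484, 621 and 730.1 CPM. Both haem enzymes showed the same order of libraries, with CaP replicate 1 lowest. Bpgm, the red cell enzyme that makes the haemoglobin effector bisphosphoglycerate, was at 1659, 1485 and 1284 CPM against 683, 983 and 986 CPM. Slc4a1, the anion exchanger of the red cell membrane, was at 6090.0, 7060.0 and 5427 CPM against 3233, 4075 and 4621 CPM. The membrane and cytoskeleton genes Ank1, Sptb, Epb42 and Rhag had differences from 0.54 to 0.71, with ranges that did not overlap. Among regulators the differences were 0.40 ± 0.25 for Klf1, a transcription factor of globin genes, 0.61 ± 0.31 for Tal1, and 0.35 ± 0.27 for Epor, the erythropoietin receptor. Hba1 and Hba2, near-identical alpha globin copies, rest on few counts and are uncertain, and Hbb and Hbb-b1, also close copies, may share reads. The 2 beta globins and Alas2 had the same order of libraries within CaP, with replicate 1 lowest and replicate 3 highest.

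The erythroid values are set beside 2 other measures that moved with them. Normalisation factors were 0.9503, 0.9585 and 1.018 for the ACPC-NP libraries and 1.058, 1.058 and 1.019 for the CaP libraries, and neutrophil granule genes were also higher around ACPC-NP. Marrow was treated to lyse red blood cells before RNA was taken, and how completely each sample was lysed is not given in the sources used here. The part of these in the erythroid difference was not tested. Bare PCL at week 6 had erythroid list scores (the mean of the list members' centred log2 CPM) from -0.53 to -0.07. The bare PCL libraries thus lay with or below CaP (-0.31 to 0.04) and below ACPC-NP (0.32 to 0.55). At week 2 the CaP scores ran from 0.19 to 0.50, which overlapped the ACPC-NP range of week 6.

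Promoters of the erythroid list are shown because its members had differences in the same direction and because the GATA motif is the classical control element of this lineage. RefSeq promoter windows of assembly GRCr8, from 250 bases before to 50 bases after the gene start, were at hand for 14 of the 22 tested members. AGATAA, searched on both strands, was present in 6 of the 14 (42.9%), against 11.3% of all 27457 windows and 6.31% of the 8956 windows of genes tested here. CCACACCC, the KLF1-type element, was present in 1 of 14 (7.14%), the Hbb window, against 3.23% of all windows. Capitals mark AGATAA or its reverse complement in Alas2, Fech and Trim58, and CCACACCC in Hbb. A match is a description of letters, not of binding.
Alas2 (chrX:22895200-22895499, plus strand, GRCr8): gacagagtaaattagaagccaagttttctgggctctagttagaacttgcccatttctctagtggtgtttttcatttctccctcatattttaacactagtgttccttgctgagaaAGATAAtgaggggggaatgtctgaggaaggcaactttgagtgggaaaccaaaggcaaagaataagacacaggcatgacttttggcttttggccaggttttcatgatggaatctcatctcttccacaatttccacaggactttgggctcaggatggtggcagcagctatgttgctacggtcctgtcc
Fech (chr18:60248476-60248775, minus strand, GRCr8): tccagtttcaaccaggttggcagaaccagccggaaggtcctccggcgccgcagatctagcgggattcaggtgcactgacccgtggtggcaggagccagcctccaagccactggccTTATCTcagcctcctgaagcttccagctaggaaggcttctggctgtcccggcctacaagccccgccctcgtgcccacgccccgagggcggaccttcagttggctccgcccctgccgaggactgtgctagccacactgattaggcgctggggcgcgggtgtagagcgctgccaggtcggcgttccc
Trim58 (chr10:43523154-43523453, plus strand, GRCr8): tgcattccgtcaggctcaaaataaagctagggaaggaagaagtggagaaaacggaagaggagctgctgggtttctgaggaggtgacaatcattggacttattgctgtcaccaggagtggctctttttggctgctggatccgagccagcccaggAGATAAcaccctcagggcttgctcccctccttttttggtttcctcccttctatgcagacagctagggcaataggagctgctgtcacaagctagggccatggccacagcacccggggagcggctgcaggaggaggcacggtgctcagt
Hbb (chr1:167663672-167663971, minus strand, GRCr8): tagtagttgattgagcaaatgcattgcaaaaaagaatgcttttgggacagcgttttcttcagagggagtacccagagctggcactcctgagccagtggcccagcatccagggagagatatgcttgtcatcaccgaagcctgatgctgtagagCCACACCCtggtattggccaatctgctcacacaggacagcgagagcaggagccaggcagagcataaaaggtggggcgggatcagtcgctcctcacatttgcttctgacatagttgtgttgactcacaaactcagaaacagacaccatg
The motif began at position -136 in Alas2, -135 in Fech, -97 in Trim58 and -98 in Hbb, counted from the gene start. Among all genes with an unadjusted p under 0.05, AGATAA was in 8.35% of windows of the 395 higher genes with a window and in 4.77% of the 440 lower ones. Of the erythroid list, 11 members reached that p with higher values, so the higher genes are not a set separate from this list.

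Neutrophil genes also had higher values around ACPC-NP. Of 17 tested genes for neutrophil granule proteins, 16 had a difference above 0 with a median of 0.43, and 7 had CPM ranges that did not overlap (12.3% of all genes did so in this direction). Camp, an antimicrobial granule peptide, was at 3063, 2922 and 2365 CPM around ACPC-NP and at 1546, 1765 and 1986 CPM around CaP, a difference of 0.66 ± 0.21 (edgeR unadjusted p = 0.00744). S100a8, a calcium-binding protein of neutrophils, was at 9894, 9918 and 6786 CPM against 4332, 5548 and 6502 CPM. ACPC-NP replicate 3 was the lowest of its group for both genes and stood just above the highest CaP library for S100a8. Genes of mature neutrophils had a median of 0.44, with 11 of 12 above 0, which was 0.24 without ACPC-NP replicate 2, and the list scores of the groups overlapped. Alox5, the first enzyme of leukotriene synthesis, was at 211, 219 and 143 CPM against 124, 138 and 129.8 CPM. Bare PCL replicate 1 resembled ACPC-NP for these genes (list score 0.44 for granule proteins), and the other bare PCL libraries stood at -0.82 and -0.29. Eosinophil and mast cell genes had a median of 0.35 with 12 of 16 above 0 and 4 below, and the list scores of the groups overlapped. CPM ranges did not overlap for 1 of the 16 higher (12.3% of all genes) and 2 lower (12.5% of all genes). An unadjusted p under 0.05 was reached by 0 of the 16 in edgeR. Megakaryocyte and platelet genes had a median of 0.64 with 10 of 11 above 0, although several rest on few reads. In edgeR 1 of the 11 had an unadjusted p under 0.05 and a higher value (4.38% of all genes). CPM ranges did not overlap for 4 higher (12.3% of all genes), and the list scores of the groups overlapped. Clec1b, a platelet receptor, was at 3.12, 2.21 and 2.45 CPM against 0.7301, 1.79 and 1.61 CPM.

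Genes of B-lymphocyte development had lower values around ACPC-NP. Of 18 tested members, 17 had a difference below 0 with a median of -0.65, and 9 had an unadjusted p under 0.05 in this direction (4.96% of all genes). CPM ranges did not overlap for 9 (12.5% of all genes). None was called by edgeR or DESeq2, and voom called 4 of the 18.

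Ebf1, a transcription factor that commits cells to the B lineage, was at 137, 152 and 167 CPM around ACPC-NP and at 234, 301 and 286 CPM around CaP. The groups did not overlap, and the difference was -0.85 ± 0.24 (edgeR unadjusted p = 0.00321, adjusted p = 0.52, voom adjusted p = 0.031). Pax5, the factor that keeps B-cell identity, was at 50.2, 56.1 and 62.1 CPM against 73.9, 99.2 and 110.5 CPM. Cd72, a B-cell surface receptor, was at 214, 239 and 302 CPM against 391, 469 and 523 CPM. For each of Ebf1, Pax5 and Cd72, ACPC-NP replicate 1 was the lowest of the 6 libraries. Blnk, an adaptor of B-cell receptor signalling, was at 217, 224 and 326 CPM against 354, 398 and 493 CPM. Spib, a transcription factor of B and plasmacytoid cells, was at 631, 626 and 825 CPM against 909, 1213 and 1293 CPM. Vpreb1, part of the surrogate light chain of pre-B cells, was at 13.5, 11.7 and 6.04 CPM against 15.6, 16.8 and 20.9 CPM.

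Other members were less separated. Rag1, the recombinase of antigen receptor genes, was at 199, 266 and 292 CPM against 226, 549 and 455 CPM, and Ms4a1, which encodes CD20, at 62.5, 82.6 and 61.7 CPM against 49.4, 118 and 73.3 CPM. The groups overlapped for Rag1 and for Ms4a1. Irf4, a factor of activated B and plasma cells, was at 194, 176 and 250.3 CPM against 447, 368 and 406 CPM, a difference of -0.98 ± 0.28 (voom adjusted p = 0.0371, edgeR adjusted p = 0.52). Plasma cell genes as a list had a median of 0.11, with 7 of 11 above 0 (0.25 without CaP replicate 1). T-cell genes were evenly divided, with 10 of 20 above 0 and a median of -0.01. In the T-cell list, Ccr7, a homing receptor that B cells also carry, was at 38.8, 24.6 and 37.8 CPM against 70.02, 55.2 and 55.5 CPM.

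Bare PCL at week 6 was divided for the B-lineage genes. Ebf1 was at 163.5, 340.3 and 372 CPM in the 3 bare PCL libraries, so replicate 1 stood with ACPC-NP and the others with or above CaP. The B-cell list scores of bare PCL were -0.50, 0.46 and 0.50, against -0.47, -0.26 and -0.22 for ACPC-NP and -0.06, 0.38 and 0.27 for CaP. RefSeq windows were at hand for 10 of the 18 tested B-lineage genes, and CCCNNGGG, the core of the EBF1 motif, searched on both strands, was in 3 of them (30.0%) against 18.2% of windows of genes tested and 12.7% of all windows. It was also in 4 of the 14 erythroid windows (28.6%). Spib is shown with the motif in capitals because its window held overlapping copies, at positions -75 and -74.
Spib (chr1:104161246-104161545, minus strand, GRCr8): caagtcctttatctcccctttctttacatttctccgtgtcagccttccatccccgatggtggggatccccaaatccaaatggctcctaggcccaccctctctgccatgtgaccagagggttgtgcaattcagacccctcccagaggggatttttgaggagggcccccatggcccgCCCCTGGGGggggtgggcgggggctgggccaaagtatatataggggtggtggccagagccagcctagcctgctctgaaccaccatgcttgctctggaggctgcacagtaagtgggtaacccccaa

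**Figure D2:**
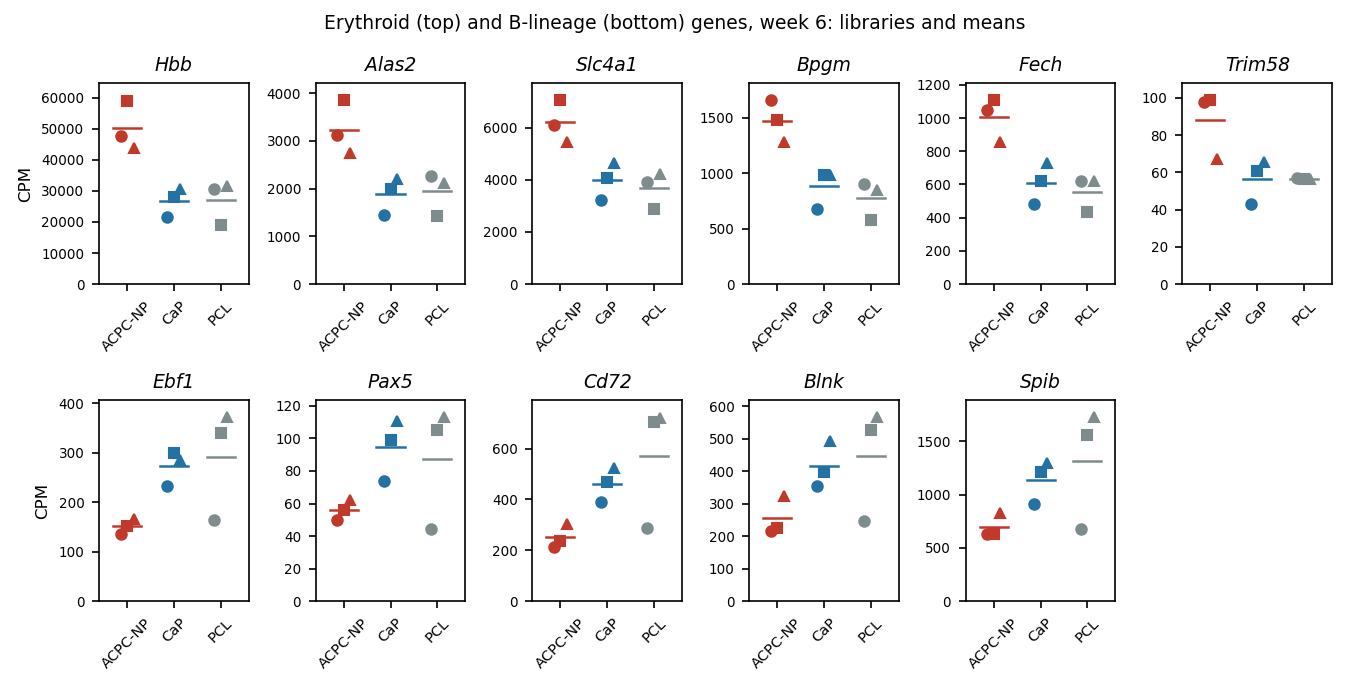
CPM in each week 6 library around ACPC-NP, CaP and bare PCL for 6 erythroid genes (top) and 5 B-lineage genes (bottom), with circles, squares and triangles for replicates 1, 2 and 3 and lines for group means. ACPC-NP points lie above CaP points for each erythroid gene and below them for each B-lineage gene, and bare PCL replicate 1 lies with ACPC-NP for the B-lineage genes.

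Most of the listed genes that cells switch on quickly after a stimulus had a difference below 0. All 13 tested genes of the NF-kB list, subunits and feedback regulators of that inflammatory transcription factor, had a difference below 0 with a median of -0.47, and 6 had ranges that did not overlap (12.5% of all genes). None reached an unadjusted p under 0.05 in edgeR, whose estimate of spread included the week 2 libraries. Birc3, an NF-kB target that blocks cell death, was at 154, 98.2 and 144 CPM against 249.2, 195 and 268 CPM. Nfkb2, a precursor subunit, was at 248.5, 161 and 215 CPM against 391.6, 294 and 425 CPM. Both genes were lowest in ACPC-NP replicate 2. Cd40, a receptor of B cells and macrophages, was at 28.8, 22.9 and 36.9 CPM against 50.3, 41.5 and 57.3 CPM. Several of these genes are also active in B cells, whose markers moved with them (9 of 18 separate, list score -0.47 to -0.22 around ACPC-NP and -0.06 to 0.38 around CaP), and their part in the result was not tested.

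Immediate early genes, the first to be transcribed after a stimulus or after handling, had a median of -0.40 with 23 of 25 below 0, which was -0.65 when ACPC-NP replicate 3 was left out and -0.24 when CaP replicate 1 was. The immediate early list scores of the groups overlapped, at -0.68 to 0.01 around ACPC-NP and -0.28 to 0.43 around CaP. An unadjusted p under 0.05 in this direction was reached by 1 of 25 (4.96% of all genes). That gene, Nr4a1, a nuclear receptor of this class, was at 189, 129.7 and 184 CPM around ACPC-NP and at 579.6, 244 and 335 CPM around CaP, a difference of -1.20 ± 0.51 (edgeR unadjusted p = 0.0337). Egr3 was at 9.48, 10.4 and 12.5 CPM against 21.0, 18.1 and 20.3 CPM, while Fos was at 98.1, 74.0 and 263 CPM against 199, 95.04 and 198 CPM. Egr3 did not overlap between groups and Fos did. Myc was one of the 2 genes above 0, at 69.9, 66.5 and 64.5 CPM against 45.4, 55.9 and 41.6 CPM. Heat shock and chaperone genes had a median of -0.26 with 12 of 16 below 0 (-0.079 without CaP replicate 1), and 5 of 16 had an unadjusted p under 0.05 in this direction (4.96% of all genes). The heat shock list scores also overlapped, at -0.49 to 0.12 around ACPC-NP and -0.29 to 0.51 around CaP. Dnajb4, a co-chaperone, was at 33.4, 30.1 and 34.4 CPM against 46.2, 42.3 and 41.8 CPM, with a difference of -0.41 ± 0.12 (edgeR unadjusted p = 0.00417). Tissue was digested with enzymes before RNA was taken, and the part of digestion in the immediate early and heat shock values was not tested.

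Genes of bone formation did not separate the scaffolds. Of 19 tested osteoblast genes, 15 had a difference below 0 with a median of -0.58, but 1 gene in each direction had an unadjusted p under 0.05 (4.38% of all genes higher and 4.96% lower), and without CaP replicate 3 the median was -0.05. Runx2, the master factor of osteoblasts, was at 37.5, 42.5 and 31.5 CPM around ACPC-NP and at 39.4, 35.9 and 37.4 CPM around CaP. The groups overlapped and the difference of -0.02 had a 95% interval from -0.32 to 0.29. Col1a1 was at 4373, 5617 and 7483 CPM against 6561, 6660.0 and 13580 CPM, and Bglap, which encodes osteocalcin, at 112, 132 and 173 CPM against 192, 144 and 437 CPM. CaP replicate 3 was the highest library for both. The difference of Col1a1 was -0.62, with a 95% interval from -1.48 to 0.25, and that of Bglap was -0.89 ± 0.42 (edgeR unadjusted p = 0.0507). Alpl, the alkaline phosphatase of mineralisation, had overlapping groups and a difference of 0.23 ± 0.27. Phospho1, a phosphatase that starts mineral formation in matrix vesicles and is also present in red blood cells, was at 164, 211 and 194.7 CPM against 120.0, 102 and 162 CPM, a difference of 0.57 ± 0.20 (edgeR unadjusted p = 0.0123). Col1a2, the other low-p gene of this list, rests on 1 read in each ACPC-NP library against 3, 3 and 11 reads in CaP libraries. Of the osteocyte genes, Dmp1 was at 3.55, 7.04 and 11.1 CPM against 8.24, 5.31 and 32.9 CPM, again highest in CaP replicate 3. Other bone genes with overlapping groups were Ibsp, a mineral-binding matrix protein (-1.25 ± 0.67), Spp1, which encodes osteopontin (-0.49 ± 0.58), Bmp2, a bone-inducing growth factor (-0.53 ± 0.66), and Sost, an osteocyte inhibitor of Wnt signalling (0.26 ± 0.71).

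Osteoclast genes were evenly divided, with 7 of 14 above 0 and a median of 0.01. Acp5, the acid phosphatase of osteoclasts, was at 98.9, 105 and 169 CPM around ACPC-NP and at 219, 99.3 and 148 CPM around CaP. Ctsk, the collagen-degrading protease of osteoclasts, was at 45.5, 85.5 and 169 CPM against 239, 27.0 and 108 CPM. CaP replicates 1 and 2 held the highest and lowest Ctsk values of the 6 libraries. Nfatc1, the main osteoclast transcription factor, had a difference of -0.06 ± 0.12, Csf1, a growth factor of osteoclast precursors, 0.06 ± 0.61, and Tnfrsf11b, the decoy receptor osteoprotegerin, -0.46 ± 0.57. Car2, a carbonic anhydrase of both osteoclasts and red cells, was the osteoclast-list member of smallest p, at 1716, 1774 and 1445 CPM against 953, 962 and 1195 CPM.

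Cartilage genes followed single libraries. Col2a1, the main cartilage collagen, was at 11.8, 854 and 699.7 CPM around ACPC-NP and at 58.5, 58.9 and 4390.0 CPM around CaP. CaP replicate 3 was far above the rest and ACPC-NP replicate 1 far below, so the groups overlapped. The cartilage list had 16 of 17 members below 0 with a median of -1.20, and the median was 1.91 without CaP replicate 3. Genes of fibrillar collagen assembly were all below 0 (21 of 21, median -0.33), and 1 of 21 had ranges that did not overlap (12.5% of all genes), which was Col1a2 with its 1 to 11 reads. Leaving out single libraries moved that median from -0.98 to -0.04.

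Vascular and muscle genes, and the median of the marrow stroma list, followed ACPC-NP replicate 3. Its skeletal muscle list score was 2.71, against -0.54 to 1.03 in the other 5 libraries compared, and Acta1 stood at 276 CPM there against 23.0 to 89.0 CPM elsewhere. All 18 tested muscle genes had a difference above 0 with a median of 1.05, and without that library the median was -0.71. Pericyte and smooth muscle genes went from a median of 0.89 to -1.02, endothelial genes from 0.39 to -0.47 and marrow stroma genes from 0.56 to -0.58 when it was left out. The part of neighbouring tissue in these values was not tested. Within the stroma list, 5 of 16 members had higher CPM ranges that did not overlap (12.3% of all genes). An unadjusted p under 0.05 in this direction was reached by 3 of 16 in edgeR (4.38% of all genes). Lepr, above, was the stroma gene of smallest p and stood high in all 3 ACPC-NP libraries. Pparg, the regulator of fat cell and macrophage genes, was at 6.41, 9.39 and 9.11 CPM against 5.28, 5.01 and 5.36 CPM, a difference of 0.67 ± 0.21 (edgeR unadjusted p = 0.00656). Cxcl12, the main retention signal for blood precursors in marrow, was at 22.4, 18.4 and 82.3 CPM against 25.8, 10.3 and 23.3 CPM, and its high value was again that of ACPC-NP replicate 3.

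**Figure D3:**
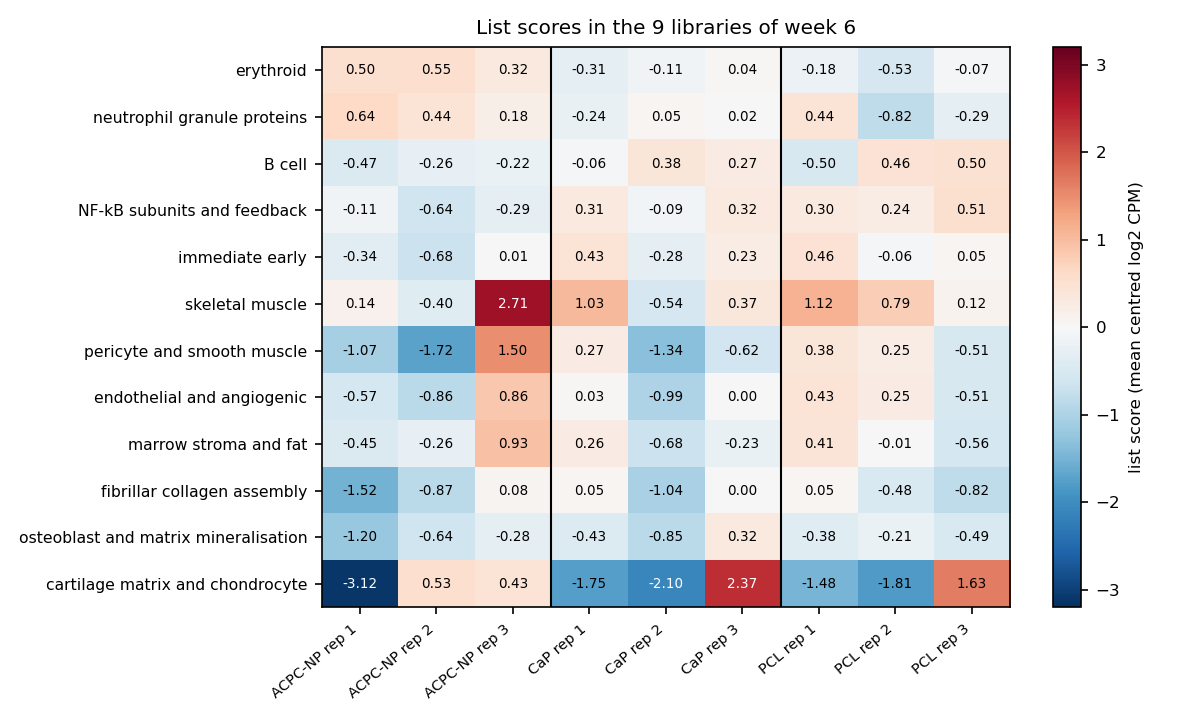
Scores of 12 gene lists (rows) in the 9 libraries of week 6 (columns), each the mean of centred log2 CPM over tested members, with red for high and blue for low. Erythroid scores are higher and B-cell scores lower in all 3 ACPC-NP libraries than in the CaP libraries, while skeletal muscle stands out at 2.71 in ACPC-NP replicate 3 and cartilage at 2.37 in CaP replicate 3.

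Macrophage and cytokine genes ranged widely, many with large SE. Each SE comes from the spread within all 6 groups, week 2 included, and not from the week 6 libraries alone. Monocyte and macrophage genes had a median of 0.22 with 13 of 18 above 0, and the median was 0.14 without CaP replicate 3 and 0.38 without CaP replicate 1. Arg1, the arginase of M2-type macrophages, had a difference of 1.81 ± 1.12 (edgeR unadjusted p = 0.127) with overlapping groups. Cd163, the scavenger receptor that takes up haemoglobin, was at 94.4, 174 and 81.1 CPM around ACPC-NP and at 30.0, 78.1 and 54.9 CPM around CaP, a difference of 1.10 ± 0.46 (edgeR unadjusted p = 0.0296). C1qa, a complement subunit made by macrophages, was at 103, 171 and 117 CPM against 85.0, 80.6 and 74.2 CPM. Neither gene overlapped between groups. Cx3cr1, a chemokine receptor, was among the 5 members below 0 (-0.68, edgeR unadjusted p = 0.0761). Of the 18, 3 had an unadjusted p under 0.05 in edgeR and higher values (4.38% of all genes). CPM ranges did not overlap for 4 higher (12.3% of all genes), and the list scores of the groups overlapped. M1-type and M2-type lists had medians of 0.12 and -0.07, and chemokines -0.21, and each of these changed sign when 1 library was left out (to -0.27 without ACPC-NP replicate 3 for M1-type, and to 0.29 for M2-type and 0.27 for chemokines without CaP replicate 1). Il1b was at 909.9, 469 and 488 CPM against 569.7, 534 and 989.5 CPM, and Il6 at 5.38, 2.84 and 8.85 CPM against 3.23, 4.53 and 5.12 CPM, both with overlapping groups. The anti-inflammatory cytokine Il10 had a difference of -0.01 ± 0.87 and Tgfb1 one of -0.09 ± 0.19. At week 6 Il10 had 25, 18 and 19 reads around ACPC-NP and 29, 14 and 27 around CaP, and its difference at week 2 was 4.04. Rsad2, an antiviral interferon-stimulated gene, was at 1678, 1896 and 1308 CPM against 454, 1082 and 898 CPM, while the interferon list as a whole had a median of 0.13 with 13 of 23 above 0, which ran from -0.012 without ACPC-NP replicate 2 to 0.37 without CaP replicate 2.

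Genes of iron handling and antioxidant defence held several of the smaller p-values. Blvrb, the biliverdin reductase abundant in red cells, was at 167, 190.0 and 181 CPM against 129, 98.2 and 125 CPM. Hp, which encodes the haemoglobin scavenger haptoglobin, was at 772, 709.8 and 371 CPM against 126, 143 and 376 CPM, so CaP replicate 3 stood within the ACPC-NP range. Gpx1, a peroxidase abundant in red cells, was at 2415, 2365 and 2192 CPM against 1348, 1480.0 and 1531 CPM, a difference of 0.68 ± 0.19 (edgeR unadjusted p = 0.00257). Gclm, a subunit of the glutathione-making enzyme, was at 159, 174 and 142 CPM against 83.3, 108 and 121 CPM. Of 22 tested genes of oxidative stress defence, 15 had a difference above 0 and 7 below, with a median of 0.16. In edgeR, 6 had an unadjusted p under 0.05 and higher values (4.38% of all genes), and 0 had lower values (4.96%). CPM ranges did not overlap for 7 higher (12.3% of all genes) and 2 lower (12.5%), and the list scores of the groups overlapped. Several of the higher genes are also expressed in red cell precursors, whose list scores are given above, and their part in the result was not tested. Genes of oxidative phosphorylation had small differences of one sign, with 22 of 25 above 0, a median of 0.16 and ranges that did not overlap for 13 (12.3% of all genes).

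**Figure D4:**
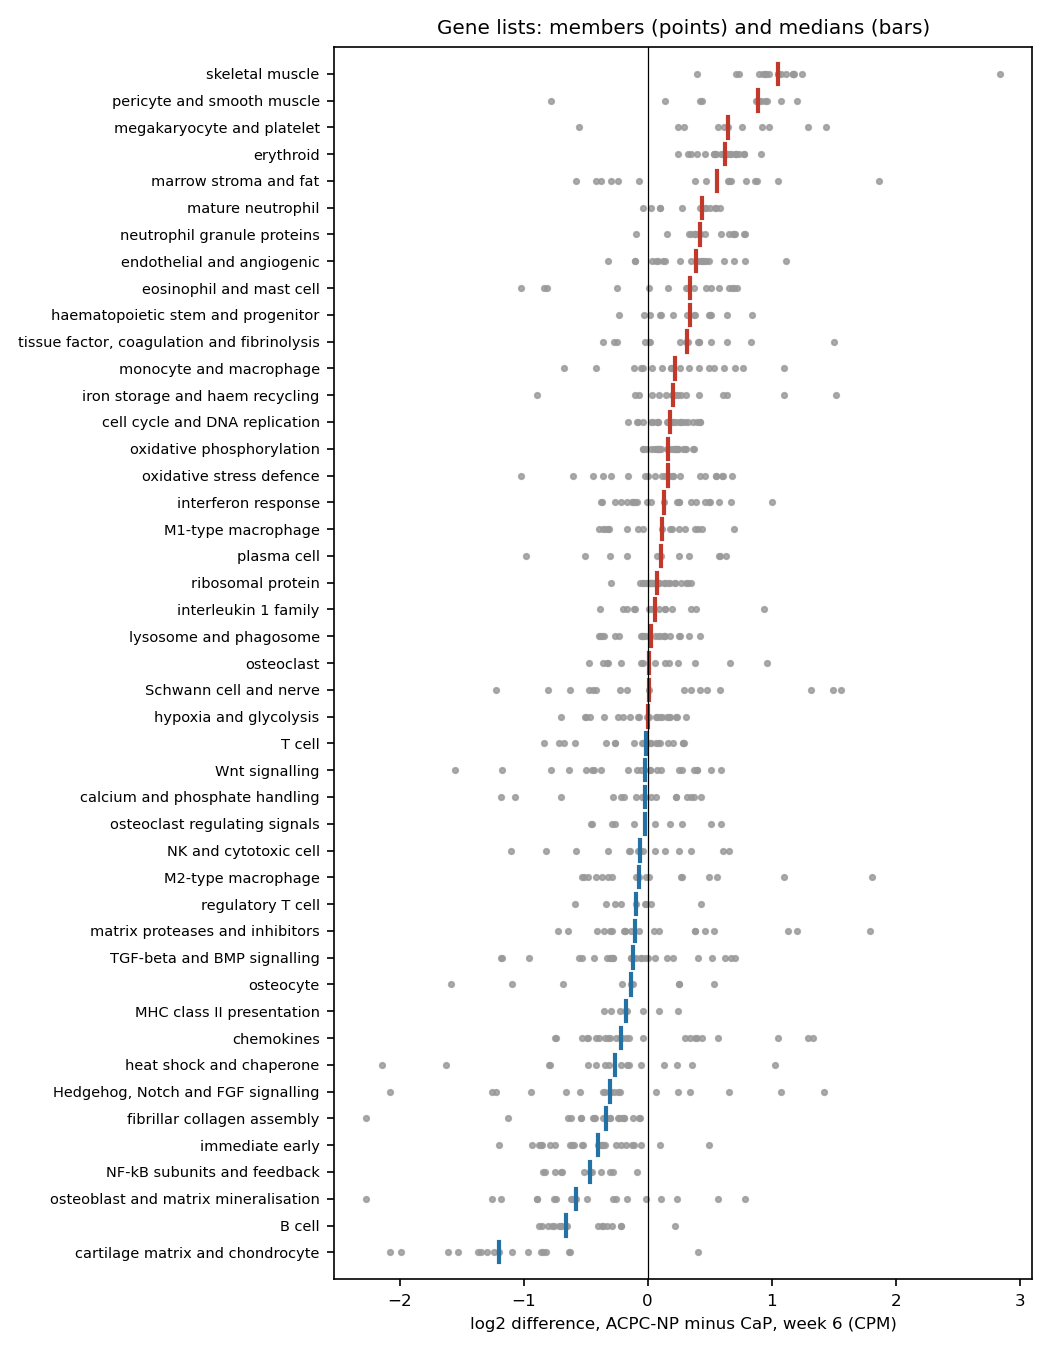
Log2 difference (ACPC-NP minus CaP, week 6) of every tested member of 45 gene lists (grey points) and the median of each list (bars, red above 0 and blue below). Erythroid members all lie above 0 with a median of 0.62 and 17 of 18 B-cell members lie below 0, while cartilage and skeletal muscle have medians of -1.20 and 1.05 that turn when 1 library is left out.

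The difference between ACPC-NP and CaP was set against the same difference at week 2. In edgeR's test of the change between weeks, 0 of 11814 genes passed the adjusted threshold (0%), the lowest adjusted p was 0.244, and 1673 genes had an unadjusted p under 0.05 (14.2%). DESeq2 called 183 genes and voom 167. One library of the week 2 comparison, ACPC-NP replicate 3, stood apart from the other 17 on the first principal component of all libraries (91.4, against -23.9 to 25.5), with a normalisation factor of 0.7065.

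The erythroid genes differed in opposite directions at the 2 time points. At week 2 all 22 were lower around ACPC-NP, with a median of -0.58, and at week 6 all 22 were higher, with 0.62. The change had an unadjusted p under 0.05 for 21 of 22, against 14.2% of all genes. Without the library that stood apart the week 2 median was -0.35 with 0 of 22 above 0, and 20 of 22 had an unadjusted p under 0.05 for the change, against 7.85% of all genes. Trim58, a ubiquitin ligase of late red cell precursors, was at 54.5, 63.7 and 34.9 CPM around ACPC-NP and at 106, 96.5 and 78.7 CPM around CaP at week 2. At week 6 Trim58 was at 97.8, 99.03 and 66.9 CPM against 42.8, 60.8 and 65.4 CPM, so the order of the groups was the opposite, and the change was 1.52 ± 0.33 (edgeR unadjusted p = 0.00037, adjusted p = 0.244). Map4k5, a kinase of the MAP4K family, had the smallest p for the change (1.03 ± 0.20, edgeR unadjusted p = 0.000117), and Tusc2 changed order in the same way (0.87 ± 0.18).

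The B-cell list was below 0 at both weeks, with a median of -0.25 at week 2 and -0.65 at week 6. A change had an unadjusted p under 0.05 for 1 of 18 genes, Vpreb1, against 14.2% of all genes. Without the library that stood apart, the week 2 median of the B-cell list was -0.12, with 6 of 18 above 0. An unadjusted p under 0.05 for the change was then reached by 2 of 18 genes in edgeR, against 7.85% of all genes. The NF-kB list stood at 0.90 at week 2 and -0.47 at week 6, but without the library that stood apart its week 2 median was -0.07. Likewise the immediate early list went from 0.95 at week 2 to 0.06 without it. Hspa1b, an inducible heat shock protein, was at 7.36, 9.46 and 107.2 CPM around ACPC-NP against 2.59, 2.30 and 3.19 CPM around CaP at week 2, so most of its mean came from that library. At week 6 Hspa1b was at 1.15, 1.94 and 3.64 CPM against 11.7, 2.26 and 15.5 CPM.

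**Figure D5:**
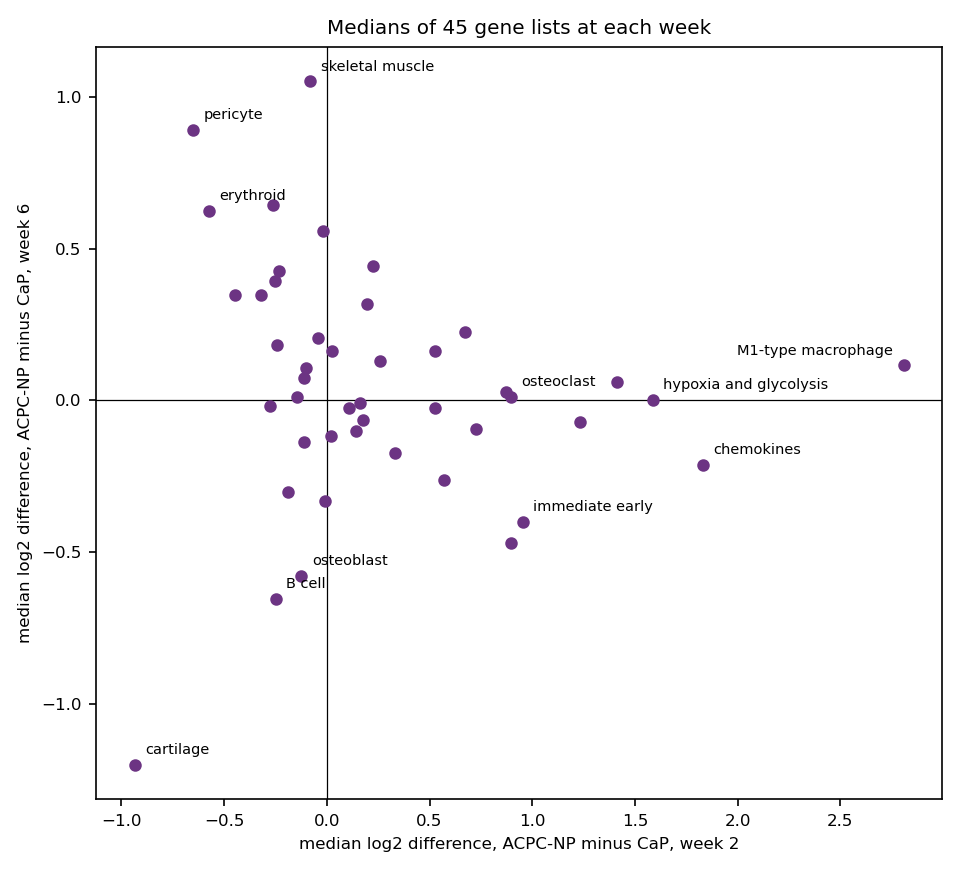
Median log2 difference (ACPC-NP minus CaP) of each of 45 gene lists at week 2 (horizontal axis) and week 6 (vertical axis), with some lists named. The erythroid point lies at -0.58 and 0.62, the B-cell point is below 0 at both weeks, and the lists far to the right owe part of their position to 1 library of week 2.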

How the data were processed

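Polyadenylated RNA was sequenced as 18 libraries, of which 6 are compared here. The authors deposited read counts per gene, not normalised. Per the submitters' processing notes, the tools were bcl2fastq 2.20.0, STAR 2.7.9a, Subread 2.0.1 and featureCounts, and the build was Rnor_6.0. Which annotation, strand setting or filter applied is not given in the sources used here, so genes that overlap on opposite strands may share counts. A table of normalised values that the authors deposited was not used.

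Counts were tested with edgeR 4.0.16 in R 4.3.3 (quasi-likelihood, robust, TMM, minimum count 10, minimum total 15), with a term for each of 6 groups over all 18 libraries, so that every group shared the estimate of spread (12 residual degrees of freedom). The biological coefficient of variation was 26.0%. Of 17337 genes in the table, 11814 were tested and held 99.98% of counts. CPM values use TMM-scaled library sizes, and list scores are built from log2 CPM (prior count 2). Benjamini-Hochberg adjustment ran over all genes tested, with a threshold of 0.05. DESeq2 1.42.0, limma 3.58.1 (voom), DESeq2 size factors, no filter, the 6 libraries alone, a replicate block and leaving out each library were alternatives. The procedure was also run on simulated counts with a single mean per gene over all libraries, apart from the changes put in. Those counts held no library that stood apart, and no result here rests on that run.

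Of 916 entries in 45 gene lists, 861 matched a symbol, 6 an older symbol and 49 none. The members and lists were chosen with earlier results of these data known. Genes were named by rule: the 10 of smallest p in each direction with a mean log2 CPM of at least 1, non-overlapping CPM ranges and a proper symbol; a panel of 25 bone and inflammation genes; the 2 of smallest p in each list; and the 5 of smallest p for the change between weeks. Other members of the lists are named as examples, chosen after their values were seen. Promoter windows were matched by symbol to RefSeq (GRCr8), a different build from that of the counts. Some genes that the rule names are not reported here.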

Additional observations from a re-analysis of the deposited data

How the results depend on the processing

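With edgeR, 0 genes passed at week 6 in either direction under TMM, DESeq2 size factors, no filter and with each of the 6 libraries compared, or ACPC-NP week 2 replicate 3, left out. DESeq2 called 12 higher, 11 lower and 183 for the change between weeks, voom 15, 55 and 167, and edgeR on the 6 libraries alone 1 lower. In edgeR, 1104 of 11814 genes had an unadjusted p under 0.05 at week 6 in the main fit. Without ACPC-NP week 2 replicate 3 it was 1582 of 11943 genes, and with the 6 libraries alone 2264 of 11309. The SE and p-values of week 6 thus depend on which other libraries share the fit. Calls for the change ran from 0 to 57 when single ACPC-NP or CaP libraries were left out, with 57 without ACPC-NP week 2 replicate 1 and 1 without ACPC-NP week 2 replicate 2. The cause of these differences between settings was not tested. Deviations of libraries with the same replicate number correlated at -0.16, 0.317 and 0.17, and those with different numbers at -0.567 to 0.479. With 3 libraries to a group, these values cannot show whether the numbers pair the libraries. A fit with the replicate block called 0 genes higher, 0 lower and 0 for the change. Of 45 list medians, 24 changed sign with some library left out and 21 did not, the erythroid and B-cell lists among the latter. No gene below passed the threshold, and each changed sign in some setting. With voom the log2 differences were Runx2 0.019, Sost -0.27, Csf1 -0.13, Notch3 -0.24, Il33 -0.054, Sox10 -0.23, and with the block Csf1 -0.098, Il1b 0.036, Il10 0.057. With single libraries left out they ranged as follows: Ctsk -0.93 to 0.57, Nfatc1 -0.13 to 0.060, Il1b -0.55 to 0.17, Il10 -0.25 to 0.23, Runx2 -0.12 to 0.089, Sost -0.53 to 0.69, Csf1 -0.43 to 0.33, Il6 -0.055 to 0.73, Notch3 -0.88 to 1.55, Hey1 -0.46 to 1.92, Il33 -0.72 to 1.51, Sox10 -0.73 to 1.87, Alpl -0.020 to 0.46, Spp1 -1.04 to 0.42, Acp5 -0.61 to 0.00094, Tnfrsf11b -1.36 to 0.25, Tgfb1 -0.20 to 0.028, Bnip3 -1.39 to 0.65, Ibsp -1.69 to 0.020, Dmp1 -1.55 to 0.088, Bmp2 -1.07 to 0.59. At this number of libraries the median SE of a log2 difference was 0.21. Leaving out ACPC-NP week 2 replicate 3 for the lists at week 2 was chosen after seeing the data.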

Other observations

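Some genes stood at either a high or a low level, with libraries of every scaffold at the high level. They were chosen after their values were seen. Pcp4l1, a small protein related to a calmodulin regulator, had the largest difference between ACPC-NP and CaP at week 6 among genes with a proper symbol, a mean log2 CPM of at least 1 and ranges that did not overlap (5.73, edgeR unadjusted p = 0.00353, adjusted p = 0.52). It stood at 27.1, 32.4 and 36.3 CPM around ACPC-NP and at 0.9734, 0.6098 and 0.142 CPM around CaP. DESeq2 gave Pcp4l1 an adjusted p of 0.0254. Over all 18 libraries Pcp4l1 was at 27.1 to 55.4 CPM in 5 and at 0.142 to 1.81 CPM in 13, with nothing between. The other libraries at the high level were bare PCL week 6 replicate 2, at 55.4 CPM, and CaP week 2 replicate 1, at 37.8 CPM. Evc2, a ciliary protein of Hedgehog signalling, was likewise at 19.8 to 43.3 CPM in 10 libraries and at 0.449 to 1.63 CPM in 8. Its week 6 values were 25.1, 23.1 and 24.1 CPM around ACPC-NP and 0.973, 22.6 and 0.807 CPM around CaP. The cause of these levels was not tested.

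Ear11, an eosinophil ribonuclease, was at 62.4, 33.4 and 32.7 CPM around ACPC-NP and at 4.42, 21.1 and 10.4 CPM around CaP at week 6 (1.84, edgeR unadjusted p = 0.0155). At week 2 the values were 12.4, 29.3 and 16.1 CPM against 62.7, 26.4 and 32.1 CPM, so the groups were in the opposite order by their means.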
